A study of Mus musculus with 12 samples.

Results

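The stefin A cluster protease inhibitors described here are 5 mouse genes of chromosome 16: Stfa1 (NCBI Gene 20861), Stfa2 (20862), Stfa2l1 (268885), Stfa3 (20863) and Csta3 (408196). They are 5 of the 22180 genes that have a row of their own in this set of skin arrays. They were chosen by their measured rise in involved skin (differences in log2 intensity; which groups served as the baseline is not named), so their values in the comparisons that use involved skin are a description and carry no test. Tests are given only for age and for comparisons that leave out the groups titled involved.

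Stefin A proteins are small intracellular inhibitors of the cystatin family. They bind in the active-site cleft of papain-like cysteine proteases, the cathepsins among them, and block it reversibly. Humans have a single stefin A gene, CSTA, whose protein is made in differentiating keratinocytes and is cross-linked into the cornified envelope, the tough shell of the outermost skin cells; its loss causes a peeling skin disorder. Mice carry a cluster of closely related copies instead, and mouse stefin A transcripts are known from skin as well as from neutrophils and other myeloid cells.

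The series measured RNA of mouse dorsal skin on 12 expression arrays and concerns skin inflammation resembling psoriasis in mice that carry an IL-17C transgene, with and without IL-6; both are cytokines. Its 6 groups are IL-17C+KO involved, IL-17C+KO uninvolved, IL-17C+ involved, IL-17C+ uninvolved, IL-6KO and WT skin, where IL-17C+ is the transgene, KO is loss of IL-6, and involved skin is the affected area of an animal's back. Every group has n = 2 pools of male and female C57Bl/6 mice, 1 pool at 10 weeks and 1 at 14 weeks of age, with 4 mice per pool in IL-6KO and WT skin at 10 weeks and 5 in every other pool (58 mice in all). The sources used here name neither the promoter behind the transgene nor whether involved and uninvolved pools share mice. Skin of IL-6KO and WT mice came from matching regions of the back; a second label calls the IL-6KO pools involved and the WT pools uninvolved, although the titles, which define the groups here, give neither an involved state. All levels below are log2 intensities of 1 array, given for 10 and then 14 weeks, and the medians of the 12 arrays lay between 3.97 and 4.23. Differences carry the standard error (SE) of limma, a linear model whose estimate of the spread is shared by all 12 arrays. Adjusted p-values are Benjamini-Hochberg values over 22180 genes. They weigh a difference against the spread of these pools alone, and a group effect that is not the same at both ages adds to that spread.

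The targeted genes did not follow the labels, so every group name below is a label. Il17c read 5.32 and 5.62 in IL-17C+KO involved skin, 6.16 and 6.25 in IL-17C+KO uninvolved skin, 5.81 and 6.63 in IL-17C+ involved skin and 4.74 and 4.16 in IL-17C+ uninvolved skin, against 6.30 and 6.17 in IL-6KO and 4.67 and 4.96 in WT skin. It was thus as high in the IL-6KO pools, which should lack the transgene, as in IL-17C+ involved skin, and as low in IL-17C+ uninvolved skin as in WT. Il6 read 4.93 and 5.00 in IL-17C+KO uninvolved skin, against 2.68 and 2.79 in IL-6KO and 2.92 and 2.88 in WT skin. The sources used here do not say whether these rows read the transgene and the disrupted part of Il6.

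The promoters of the 5 genes are much alike, and they are shown because the rows of these genes nevertheless moved differently between the groups. The lines below hold the 150 bases before the annotated start from RefSeq (build GRCm38.p6), 5′ to 3′ on the strand of the gene. Cstdc5, a cluster gene outside the 5, is added because its window is the closest to that of Stfa1. Capitals mark 3 stretches, ACTCAGCATTTCC, CACACTCATT and ACCTTTAAAACCC, each found in the 250 bases before the start of all 5 genes.
Stfa3: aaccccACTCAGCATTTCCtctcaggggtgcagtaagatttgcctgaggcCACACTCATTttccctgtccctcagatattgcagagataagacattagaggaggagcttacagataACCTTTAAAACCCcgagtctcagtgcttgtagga
Stfa1: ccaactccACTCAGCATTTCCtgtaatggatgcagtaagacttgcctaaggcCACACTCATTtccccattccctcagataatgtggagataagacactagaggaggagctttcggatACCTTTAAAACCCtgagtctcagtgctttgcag
Stfa2l1: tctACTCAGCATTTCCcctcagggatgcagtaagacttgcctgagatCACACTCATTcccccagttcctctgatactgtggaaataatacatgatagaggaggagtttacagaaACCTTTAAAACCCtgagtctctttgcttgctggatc
Csta3: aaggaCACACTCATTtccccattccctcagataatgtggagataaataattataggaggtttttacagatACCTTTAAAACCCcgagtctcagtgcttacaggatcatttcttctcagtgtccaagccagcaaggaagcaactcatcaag
Stfa2: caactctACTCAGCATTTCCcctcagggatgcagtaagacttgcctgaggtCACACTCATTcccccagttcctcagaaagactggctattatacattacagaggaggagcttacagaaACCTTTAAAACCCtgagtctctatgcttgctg
Cstdc5: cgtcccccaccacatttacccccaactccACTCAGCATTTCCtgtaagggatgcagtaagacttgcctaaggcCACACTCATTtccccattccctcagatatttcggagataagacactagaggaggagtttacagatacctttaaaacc
The windows lie at chr16:36455393-36455542 (minus strand), chr16:36276998-36277147 (plus strand), chr16:36156661-36156810 (plus strand), chr16:36210253-36210402 (plus strand), chr16:36408364-36408513 (minus strand) and chr16:36367571-36367720 (minus strand). In Csta3 the stretch ACTCAGCATTTCC lies further upstream, from base -189 to base -177 relative to the start.

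Among 32851 promoter windows of the RefSeq table, ACCTTTAAAACCC stood in 8, ACTCAGCATTTCC in 9 and CACACTCATT in 19. The stretches were found from the windows of the 5 genes and are not theirs alone. Windows of Csta1, Cstdc3, Cstdc4 and Cstdc5, other genes of the cluster, also hold some of them. In the aligned parts of their 250 bases the 5 genes were 81.8% to 92.3% identical to each other. To other cluster windows with at least 100 aligned bases they were 71.1% to 96.1% identical. Among the 5, Stfa2 and Stfa2l1 were the closest pair, at 92.3% over 246 bases. Stfa1 and Cstdc5 matched at 96.1% over 229 bases. Both pairs join a gene that reached high levels with one that stayed below the array median throughout, as the levels below show. Motif letters were searched on both strands of these 250 bases, and overlaps between motifs were allowed. The AP-1 letters TGANTCA, the STAT letters TTCNNNGAA, the NF-kB letters GGGNNTTTC and the TATA box letters TATAAA stood in 0 of the 5 genes, against 6.75%, 7.02%, 3.72% and 12.4% of all windows. The C/EBP letters TTGCNNAA stood in 2, Csta3 and Stfa1, against 9.56% of all windows, and the GATA letters AGATAA in 3, Csta3, Stfa1 and Stfa3, against 9.99%. These matches describe letters only.

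Stfa3 had the widest range of the 5 genes. It read 5.76 and 10.97 in IL-17C+KO involved skin, 11.62 and 11.92 in IL-17C+KO uninvolved skin, 12.02 and 12.07 in IL-17C+ involved skin and 5.02 and 3.38 in IL-17C+ uninvolved skin, against 9.27 and 10.51 in IL-6KO and 4.02 and 3.58 in WT skin. The order of the group means was IL-17C+ involved, IL-17C+KO uninvolved, IL-6KO, IL-17C+KO involved, IL-17C+ uninvolved and WT. IL-17C+KO involved overlapped with IL-6KO skin and IL-17C+ uninvolved with WT skin, while the other neighbours in this order did not overlap. Stfa3 lay below the array median on both WT arrays and on the 14-week IL-17C+ uninvolved array, so the size of any difference from those groups is uncertain.

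Stfa1 followed the same order. Its levels were 7.45 and 10.48 in IL-17C+KO involved skin, 10.69 and 10.93 in IL-17C+KO uninvolved skin, 11.29 and 11.02 in IL-17C+ involved skin and 6.67 and 5.94 in IL-17C+ uninvolved skin, against 9.39 and 9.79 in IL-6KO and 5.67 and 4.30 in WT skin. The only neighbours in this order to overlap were IL-6KO and IL-17C+KO involved skin, and Stfa1 was above the median of all 12 arrays.

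Stfa2l1 gave a second pattern. It read 2.89 and 5.30 in IL-17C+KO involved skin, 8.32 and 9.36 in IL-17C+KO uninvolved skin, 7.66 and 9.06 in IL-17C+ involved skin and 3.11 and 2.63 in IL-17C+ uninvolved skin, against 3.22 and 4.27 in IL-6KO and 3.17 and 2.80 in WT skin. The 4 arrays of IL-17C+KO uninvolved and IL-17C+ involved skin overlapped with each other and stood above the other 8. IL-17C+KO involved overlapped with IL-6KO skin and WT with IL-17C+ uninvolved skin, while the lower IL-6KO array lay 0.05 above the higher WT array, far inside the spread.

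Csta3 resembled Stfa2l1. Its levels were 2.97 and 5.17 in IL-17C+KO involved skin, 7.56 and 7.91 in IL-17C+KO uninvolved skin, 8.60 and 8.09 in IL-17C+ involved skin and 3.62 and 2.60 in IL-17C+ uninvolved skin, against 2.79 and 4.82 in IL-6KO and 2.85 and 2.57 in WT skin. IL-17C+ involved and IL-17C+KO uninvolved skin did not overlap with each other or with any other group, and the 4 lower groups overlapped with their neighbours. Csta3 and Stfa2l1 were each above the array median on 6 of 12 arrays.

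Stfa2 stayed below the array median on all 12 arrays, between 2.50 and 3.50. It read 2.50 and 3.15 in IL-17C+KO involved skin, 2.88 and 3.35 in IL-17C+KO uninvolved skin, 2.90 and 3.44 in IL-17C+ involved skin and 2.64 and 2.63 in IL-17C+ uninvolved skin, against 2.93 and 3.34 in IL-6KO and 3.50 and 3.0 in WT skin. Every pair of neighbouring groups overlapped. Because the coding parts of these genes are near-copies of each other, probes could read more than 1 of them, and how far each row is specific was not tested.

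**Figure D1:**
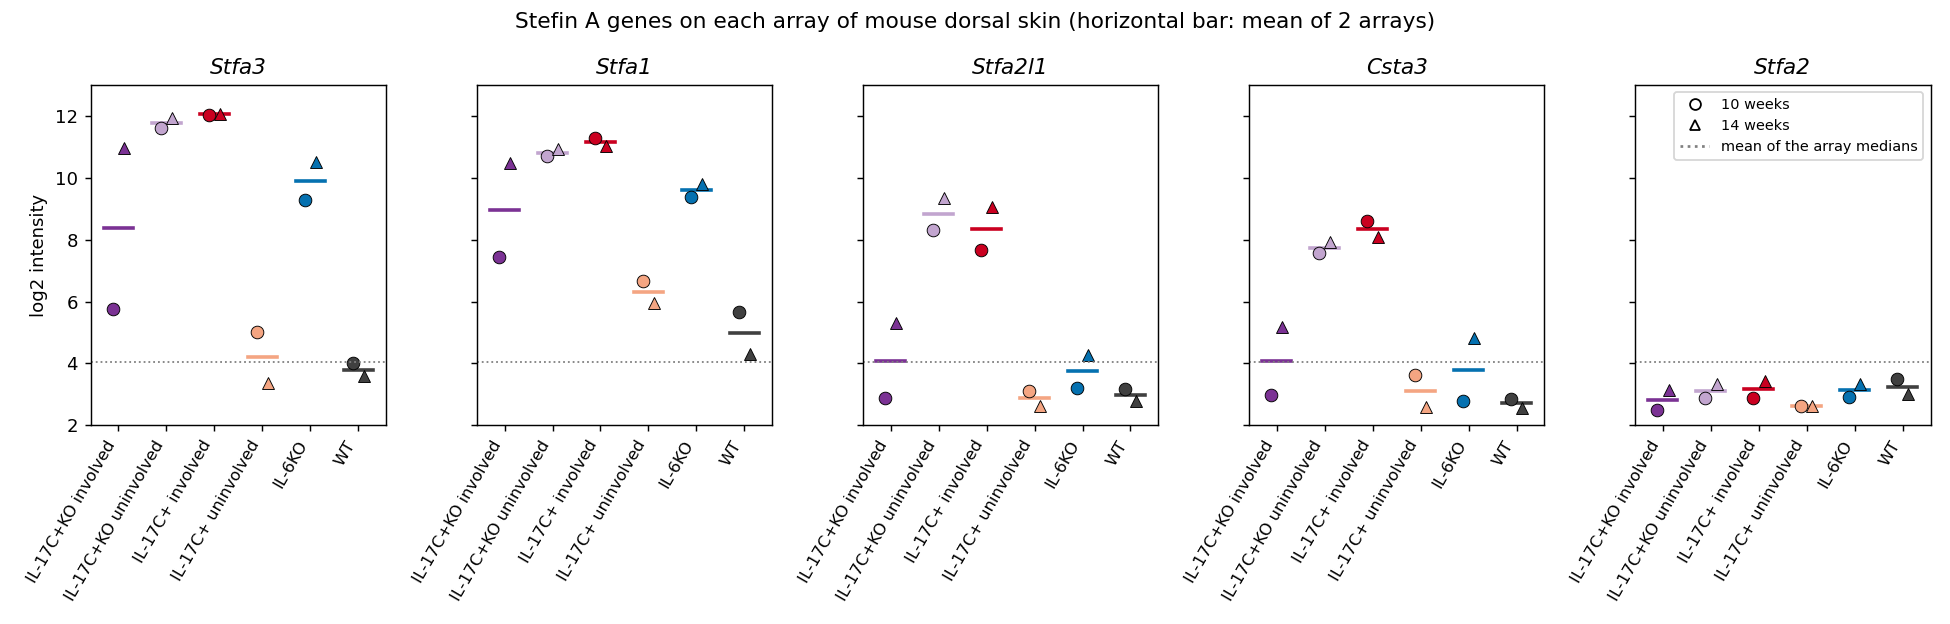
Log2 intensity of the 5 stefin A genes on each of the 12 arrays (circle for 10 weeks, triangle for 14 weeks), with a horizontal bar at the mean of the 2 arrays of a group and a dotted line at the mean of the array medians. Stfa3 and Stfa1 are high in IL-17C+KO uninvolved, IL-17C+ involved and IL-6KO skin, Stfa2l1 and Csta3 only in the first 2 of these, and Stfa2 is between 2.50 and 3.50 everywhere. Stfa3 and Stfa1 are also high on the 14-week IL-17C+KO involved array (10.97 and 10.48).

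Over the 12 arrays the genes fell into 2 pairs. Pearson's r was 0.983 between Stfa1 and Stfa3 (Spearman's rho 0.972) and 0.97 between Stfa2l1 and Csta3 (rho 0.881), against 0.814 to 0.862 across the pairs. Stfa2 had r between 0.304 and 0.43 with the other 4. These values describe 12 arrays that share their 6 groups and carry no p. The IL-6KO arrays lay in the upper part of the range of Stfa3 and Stfa1 and in the lower part of the range of Stfa2l1 and Csta3.

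**Figure D2:**
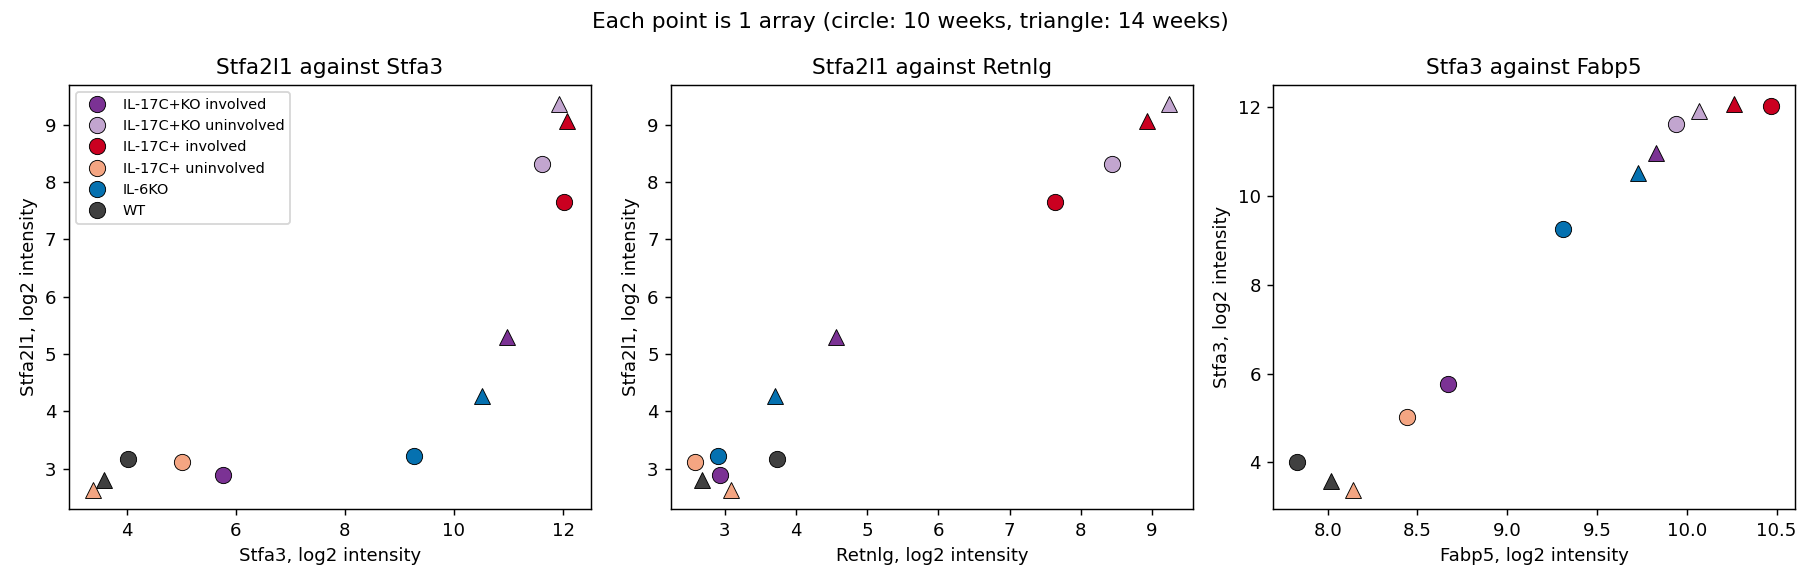
Log2 intensities on the 12 arrays (circle for 10 weeks, triangle for 14 weeks; colours give the 6 groups) of Stfa2l1 against Stfa3, Stfa2l1 against Retnlg, and Stfa3 against Fabp5. In the first panel the IL-6KO arrays and the 14-week IL-17C+KO involved array have high Stfa3 (9.27, 10.51 and 10.97) with low Stfa2l1 (3.22, 4.27 and 5.30).

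In IL-17C+ involved skin the genes were listed for their rise, and its size is given without a test. Against WT, IL-17C+ involved skin was higher by 8.24 ± 1.08 for Stfa3 (303-fold), 6.17 ± 0.71 for Stfa1, 5.63 ± 0.64 for Csta3 and 5.37 ± 0.53 for Stfa2l1, while Stfa2 differed by -0.08 ± 0.25. Stfa3 had the highest difference of all 22180 genes there, Stfa1 was 5th, Csta3 9th and Stfa2l1 10th, and Stfa2 was 13690th. Against IL-17C+ uninvolved skin the differences were 7.84 for Stfa3, 5.49 for Stfa2l1, 5.23 for Csta3, 4.85 for Stfa1 and 0.54 for Stfa2. Stfa2 was thus listed with the others but did not share the size of their rise. Of all genes, 1.8% passed in IL-17C+ involved against WT skin and 1.61% in IL-17C+ involved against IL-17C+ uninvolved skin, figures given only as the background of comparisons that chose the genes. In IL-17C+ involved against WT skin neutrophil markers also passed as higher in 10 of 18 genes (median 1.78), mast cell markers as higher in 2 of 6 (median 1.27) and skeletal muscle markers as lower in 13 of 15 (median -2.32), and their part in the rise was not tested. Without 1 array the muscle count was 13 (without WT at 10 weeks), 0 (without WT at 14 weeks or IL-17C+ involved at 10 weeks) and 1 (without IL-17C+ involved at 14 weeks), the mast cell count 0 to 1 and the neutrophil count 7 to 10.

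In IL-17C+KO involved skin the 10-week and the 14-week array stood far apart. The 14-week minus 10-week difference within IL-17C+KO involved skin was 5.21 for Stfa3, 3.03 for Stfa1, 2.41 for Stfa2l1 and 2.21 for Csta3. On average IL-17C+KO involved skin differed from IL-17C+ involved skin by -4.27 ± 0.64 for Csta3, -4.27 ± 0.53 for Stfa2l1, -3.68 ± 1.08 for Stfa3, -2.19 ± 0.71 for Stfa1 and -0.35 ± 0.25 for Stfa2. From IL-17C+KO uninvolved skin it differed by -4.75 for Stfa2l1, -3.66 for Csta3, -3.41 for Stfa3, -1.85 for Stfa1 and -0.30 for Stfa2. From IL-6KO skin it differed by no more than 1.53 in size (Stfa3 at -1.53, Stfa1 at -0.62, Stfa2 at -0.31, Csta3 at 0.27 and Stfa2l1 at 0.35). Without the 10-week IL-17C+KO involved array, Stfa3 was at -1.02 against IL-17C+ involved and at -0.75 against IL-17C+KO uninvolved skin, and at 1.13 against IL-6KO skin. Stfa1 was then at -0.50, -0.16 and 1.06 in the same comparisons, whereas Stfa2l1 kept -3.32 and -3.80 and Csta3 -3.23 and -2.62 in the first 2. Without the 14-week array of that group Stfa3 was at -6.34, -6.06 and -4.19, and Stfa1 at -3.88, -3.53 and -2.31. The shares of all genes that passed were 0.649% against IL-17C+ involved, 0.505% against IL-17C+KO uninvolved and 0.171% against IL-6KO skin.

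The first tested comparison sets the uninvolved skin labelled as lacking IL-6 against that labelled as having it. In IL-17C+KO uninvolved against IL-17C+ uninvolved skin 4 of the 5 genes rose, against 0.712% of all genes that passed in either direction. Stfa3 rose by 7.57 ± 1.08 (limma adjusted p = 0.00476), the highest difference of all genes, and Stfa2l1 by 5.97 ± 0.53 (adjusted p = 0.000216). Csta3 rose by 4.62 ± 0.64 (adjusted p = 0.00371) and Stfa1 by 4.51 ± 0.71 (adjusted p = 0.00959), while Stfa2 differed by 0.48 ± 0.25 (adjusted p = 0.755). Both IL-17C+KO uninvolved arrays were above both IL-17C+ uninvolved arrays for all 5 genes, among them Stfa2, which stayed below the array median throughout. The share of all genes separated in this way was not counted. The IL-17C+ uninvolved arrays may also have been the baseline of the rise for which the genes were listed. The p-values and the count of 4 of 5 genes are therefore not independent of that choice. The Stfa1 call ended without the 10-week (adjusted p = 0.0849) or 14-week IL-17C+KO uninvolved array (0.118) or the 14-week IL-17C+ uninvolved array (0.142). That of Stfa3 ended without the 10-week IL-17C+KO uninvolved (0.0561) or the 14-week IL-17C+ uninvolved array (0.0913), and that of Csta3 only without the 14-week IL-17C+ uninvolved array (0.0724).

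IL-17C+KO uninvolved and IL-6KO skin differ by the transgene in their labels, although Il17c read 6.16 and 6.25 in IL-17C+KO uninvolved and 6.30 and 6.17 in IL-6KO skin. This comparison takes its difference from no IL-17C+ involved, IL-17C+ uninvolved or WT array, although all 12 arrays share the estimate of the spread. Both groups compared may still have been baselines of the rise for which the genes were listed. Its p-values, ranks and count are therefore not independent of that choice. Stfa2l1 rose by 5.10 ± 0.53 (34.2-fold, adjusted p = 0.000619), the 5th highest difference of all genes, and Csta3 by 3.93 ± 0.64 (15.2-fold, adjusted p = 0.0169), the 9th. Both genes lay below the array median on the 10-week IL-6KO array, so these fold sizes are uncertain. Stfa3 at 1.88 ± 1.08 (95% interval -0.45 to 4.21, adjusted p = 0.782) and Stfa1 at 1.22 ± 0.71 (adjusted p = 0.784) did not pass, and Stfa2 was at -0.02 ± 0.25. Thus 2 of 5 genes passed, against 0.397% of all genes. The Stfa3 and Stfa1 levels did not overlap between these groups, yet a difference was not detectable at the spread shared by the 12 arrays. The share of all genes without such overlap was not counted. The Csta3 call ended without the 10-week IL-6KO array (adjusted p = 0.268), the 10-week (0.138) or the 14-week IL-17C+KO uninvolved array (0.217), and narrowly with another quantile normalization (0.0528). Stfa3 passed (adjusted p = 0.000244) in a fit of only the 4 arrays compared.

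The other pair, Stfa3 and Stfa1, rose in skin labelled IL-6KO. Against WT skin, Stfa3 rose there by 6.09 ± 1.08 (68.2-fold, adjusted p = 0.0341), the 2nd highest difference of all genes, and Stfa1 by 4.60 ± 0.71 (24.3-fold, adjusted p = 0.0184), the 8th. Csta3 at 1.09 ± 0.64 (adjusted p = 0.721), Stfa2l1 at 0.76 ± 0.53 (adjusted p = 0.779) and Stfa2 at -0.11 ± 0.25 (adjusted p = 0.959) did not pass. That makes 2 of 5, against 0.455% of all genes, and both rises were known before the genes were listed. WT may also have been the baseline of the rise for which the genes were listed, so these p-values and this count are not independent of that choice. The Stfa3 call ended without any 1 of the 4 arrays (adjusted p between 0.0747 and 0.32), with no replicate block (0.0786) and with eBayes without the trend (0.0591). The Stfa1 call ended without the 10-week (0.0936) or 14-week IL-6KO array (0.258) or the 14-week WT array (0.127).

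In IL-17C+ uninvolved against WT skin 0 of the 5 genes passed, and 0.0541% of all genes did. The differences were 1.32 ± 0.71 for Stfa1 (95% interval -0.23 to 2.87, adjusted p = 0.893), 0.40 ± 1.08 for Stfa3 (-1.93 to 2.73, adjusted p = 0.972), 0.40 ± 0.64 for Csta3, -0.11 ± 0.53 for Stfa2l1 and -0.61 ± 0.25 for Stfa2. The intervals leave room for differences of several fold, and Stfa1 was higher at both ages.

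**Figure D3:**
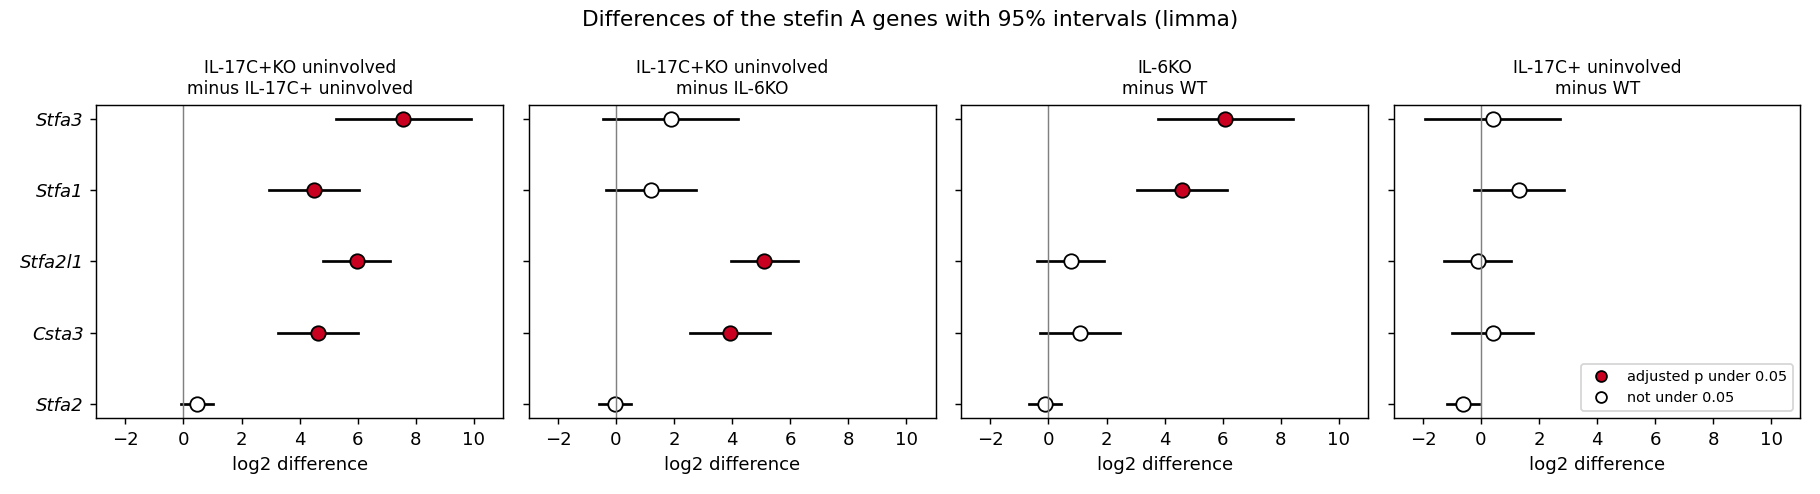
Log2 differences of the 5 stefin A genes with 95% intervals of limma in the 4 tested group comparisons, filled where the adjusted p is under 0.05. There, 4 genes pass in IL-17C+KO uninvolved minus IL-17C+ uninvolved skin, Stfa2l1 and Csta3 in IL-17C+KO uninvolved minus IL-6KO skin, Stfa3 and Stfa1 in IL-6KO minus WT skin, and none in IL-17C+ uninvolved minus WT skin.

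Whether the label of IL-6 loss went with a larger difference in pools labelled transgenic than in the others was tested as an interaction, the first of these comparisons minus the third. Stfa2l1 passed, with 5.21 ± 0.75 (adjusted p = 0.0136, 5.16 at 10 weeks and 5.26 at 14 weeks), the 3rd highest of all genes. Csta3 was at 3.53 ± 0.90 (adjusted p = 0.313), Stfa3 at 1.48 ± 1.52, Stfa2 at 0.60 ± 0.36 and Stfa1 at -0.10 ± 1.01, and none of these passed. So 1 of 5 genes passed, against 0.153% of all genes. The WT or IL-17C+ uninvolved arrays, which enter this test, may have been the baseline of the rise for which the genes were listed. The p-values, ranks and this count are therefore not independent of that choice. Whether the interaction differs between the genes was not tested. The Stfa2l1 call ended with no replicate block (adjusted p = 0.063) and without 1 of 5 arrays, namely WT at 10 weeks (0.109), IL-6KO at 10 weeks (0.0942) or 14 weeks (0.0731), IL-17C+ uninvolved at 14 weeks (0.0794) or IL-17C+KO uninvolved at 14 weeks (0.118).

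Age over all groups gave no call. The 14-week minus 10-week difference was 0.84 ± 0.31 for Stfa2l1 (adjusted p = 0.571), 0.79 ± 0.62 for Stfa3, 0.46 ± 0.37 for Csta3, 0.26 ± 0.15 for Stfa2 and 0.22 ± 0.41 for Stfa1. limma called 0 of all genes (0.0%), with 1856 at an unadjusted p under 0.05. The values of Stfa3 and Stfa1 rested on IL-17C+KO involved skin: without either of its arrays they were at -0.10 and -0.34.

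The levels of several marker lists moved with these differences, and their part in them was not tested. In bulk skin, fewer cells of a type and less RNA per cell cannot be told apart. Shares of all genes that passed in either direction are the background of the marker counts here and in the next paragraph. They were 0.397% in IL-17C+KO uninvolved against IL-6KO skin and 0.712% against IL-17C+ uninvolved skin. In the interaction the share was 0.153%, in IL-6KO against WT skin 0.455% and in IL-17C+ uninvolved against WT skin 0.0541%. Neutrophil markers passed as higher in 10 of 18 genes in IL-17C+KO uninvolved against IL-6KO skin (median 1.84, against -0.01 for all genes), where Stfa2l1 and Csta3 rose. Retnlg, a secreted product of neutrophils, rose by 5.54 ± 0.46 and Mmp8, neutrophil collagenase, by 3.99 ± 0.37. The count was 3 without the 14-week IL-17C+KO uninvolved array and 5 without the 14-week IL-6KO array, against 7 and 9 without the other 2. In IL-17C+KO uninvolved against IL-17C+ uninvolved skin 9 of 18 rose (median 2.06), and in the interaction 5 did (median 1.77). The interaction count was 1 without the WT array at 10 weeks or the 14-week array of IL-6KO, IL-17C+ uninvolved or IL-17C+KO uninvolved skin, and 3 to 7 without 1 of the other 4. In IL-6KO against WT skin, where Stfa3 and Stfa1 rose, 0 of 18 passed, with a median of 0.02 that turned to -0.01 when values below the array median were set to it.

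The mean log2 level of the 18 neutrophil markers was 4.08 and 4.42 in IL-17C+KO involved skin, 6.03 and 6.51 in IL-17C+KO uninvolved skin, 5.89 and 6.41 in IL-17C+ involved skin and 4.13 and 4.02 in IL-17C+ uninvolved skin, against 4.23 and 4.20 in IL-6KO and 4.34 and 3.95 in WT skin. The granule genes Elane, Mpo and Camp were below the array median on all 12 arrays, and Ly6g was above it on 3. Hair shaft markers passed as higher in 9 of 11 genes in IL-6KO against WT skin (median 2.70, and 0 to 3 genes without 1 of the 4 arrays). There Krtap19-1, a keratin-associated protein of hair, was at 6.10 ± 0.73. They also passed in 4 of 11 in IL-17C+ uninvolved against WT skin (median 2.73, and 0 to 8 without 1 array), where no stefin A gene did. Skeletal muscle markers were lower in 2 of 15 genes both in IL-6KO against WT (median -1.28) and in IL-17C+KO uninvolved against IL-17C+ uninvolved skin (median -1.54), and in 0 of 15 in IL-17C+KO uninvolved against IL-6KO skin (median -0.21). Without 1 array the first 2 muscle counts were 0 to 1 and 0, and with values below the array median set to it they were 8 and 11. In IL-17C+KO uninvolved against IL-6KO skin macrophage and dendritic cell markers passed in 1 of 10 (Cd14, a receptor for bacterial lipopolysaccharide, at 3.36 ± 0.45), fibroblast markers in 1 of 7 (Col3a1 at 2.02 ± 0.32), and T cell, mast cell, adipocyte and keratinocyte markers in 0. The fibroblast median there was 1.44, with 7 of 7 genes above 0, and the mast cell median 0.51, with 6 of 6 above 0. Medians of macrophage and dendritic cell, T cell, adipocyte and keratinocyte markers were 0.43, 0.05, -0.22 and -0.29. The Col3a1 call ended without any 1 of the 4 arrays, and that of Cd14 without either IL-6KO array or the 14-week IL-17C+KO uninvolved array. Fibroblast markers were lower in 3 of 7 genes in IL-6KO against WT skin, led by the collagen gene Col1a2 at -2.29 ± 0.30, and in 0 to 3 without 1 array. Keratinocyte markers, the defining genes of the epidermis, averaged 9.41 to 10.01 on all 12 arrays. In IL-17C+KO uninvolved against IL-17C+ uninvolved skin 2 of 9 passed as lower, Krt15 and Col17a1 (median -0.09). The Col17a1 call ended without any 1 of the 4 arrays. That of Krt15 ended without either IL-17C+KO uninvolved array or the 14-week IL-17C+ uninvolved array. In IL-17C+ involved skin 1 of 9 was higher and 2 were lower against WT, and likewise against IL-17C+ uninvolved skin. Each of these calls ended without the 10-week IL-17C+ involved array. Their single call in IL-6KO against WT skin was Krt15, a keratin of basal and follicle cells, at -2.35 ± 0.43, a call that ended without any 1 of the 4 arrays (limma adjusted p between 0.0522 and 0.421).

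Calls among other genes of the cystatin family and the protease targets are set beside the share of all genes that passed. Of 7 other type 1 cystatins, 1 passed in IL-17C+KO uninvolved against IL-17C+ uninvolved skin, against 0.712% of all genes. In IL-17C+ involved skin 2 of 7 passed against WT (1.8% of all genes). There 2 of 7 also passed against IL-17C+ uninvolved skin (1.61%), namely Cstdc6 and Cstdc5. The 7 other type 1 cystatins had a median of 0.63 in IL-17C+KO uninvolved against IL-17C+ uninvolved skin, with 6 of 7 above 0, and of 0.98 in IL-17C+ involved against WT skin, and whether they differ from the 5 was not tested. The median of 0.98 turned to -0.03 when values below the array median were set to it. Of 7 other type 1 cystatins with a row, Cstdc6 rose by 3.58 ± 0.45 in IL-17C+KO uninvolved against IL-17C+ uninvolved skin (adjusted p = 0.00196). It read 7.33 and 7.69 in IL-17C+KO uninvolved against 4.27 and 3.58 in IL-17C+ uninvolved skin. No gene of that list passed in IL-6KO against WT, IL-17C+KO uninvolved against IL-6KO or IL-17C+ uninvolved against WT skin, with Cstdc6 at 1.14 ± 0.45 and 2.13 ± 0.45 in the first 2. In IL-17C+ involved against WT skin, Cstdc6 rose by 3.51 ± 0.45 and Cstb, the stefin B gene found in most cell types, by 1.27 ± 0.25 (adjusted p = 0.0263). The Cstb call ended without any 1 of the 4 arrays (adjusted p between 0.0737 and 0.337). Csta2, Cstdc3 and Cstdc5 were below the array median on all 12 arrays.

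Of 13 secreted cystatins, Fetub, an inhibitor of a metalloprotease, was the only one to pass, with 1.56 ± 0.22 in IL-17C+KO uninvolved against IL-17C+ uninvolved skin and 1.51 ± 0.22 in IL-17C+ involved against IL-17C+ uninvolved skin. Of all genes, 0.712% and 1.61% passed in these 2 comparisons. The first call ended without the 10-week IL-17C+KO uninvolved or the 14-week IL-17C+ uninvolved array, and the other without either IL-17C+ involved array (adjusted p up to 0.0763 and 0.0664). Of 11 cysteine cathepsins and legumain, the proteases that stefins and cystatins act on, only Ctsl passed, with 1.21 ± 0.26 in IL-17C+ involved against WT skin (adjusted p = 0.0335), a call that ended without any 1 of the 4 arrays (0.107 to 0.378). The share of all genes that passed in IL-17C+ involved against WT skin was 1.8%. In the 4 tested group comparisons and the interaction 0 of the 11 passed, with medians between -0.31 and 0.29. The largest difference that did not pass was that of Ctsk, the collagen-degrading cathepsin K, at -1.24 ± 0.35 in IL-6KO against WT skin.

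Among 17 other epidermal protease inhibitors, Serpinb3a, a serpin of squamous epithelia, rose in both tested group comparisons in which Stfa3 did. The rise was 3.43 ± 0.52 in IL-6KO against WT skin (adjusted p = 0.017) and 4.48 ± 0.52 in IL-17C+KO uninvolved against IL-17C+ uninvolved skin (adjusted p = 0.00126). Like that of Stfa3, the call in IL-6KO against WT skin ended without any 1 of the 4 arrays (adjusted p between 0.0608 and 0.286), whereas the other passed in all 4 such fits. Its levels were 4.90 and 7.44 in IL-17C+KO involved skin, 7.0 and 6.95 in IL-17C+KO uninvolved skin, 7.47 and 7.21 in IL-17C+ involved skin and 2.48 and 2.51 in IL-17C+ uninvolved skin, against 5.91 and 7.21 in IL-6KO and 2.97 and 3.29 in WT skin. Slpi, a secreted inhibitor of neutrophil elastase, rose by 2.85 ± 0.36 in IL-17C+KO uninvolved against IL-17C+ uninvolved skin (adjusted p = 0.00205) and was at 1.81 ± 0.36 against IL-6KO skin (adjusted p = 0.0594). Among 6 genes of envelope cross-linking, Tgm3, a transglutaminase, rose by 2.29 ± 0.36 in IL-6KO against WT skin (adjusted p = 0.0194), a call that ended without any 1 of the 4 arrays (0.0736 to 0.271). It was the only one of these genes to pass in the 4 tested group comparisons.

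Genes with large differences were not all neighbours along the cluster. In the gene order of RefSeq (GRCm38.p6) the 11 measured protein-coding genes run Csta1, Stfa2l1, Cstdc4, Csta3, Csta2, Stfa1, Cstdc3, Cstdc6, Cstdc5, Stfa2 and Stfa3. Csta2, between Csta3 and Stfa1, was at -0.03 ± 0.20 in IL-17C+KO uninvolved against IL-17C+ uninvolved skin, and Cstdc4, between Stfa2l1 and Csta3, at 1.20 ± 0.45 (adjusted p = 0.427). Stfa2 lies next to Stfa3 in this order. Of the 10 nearest measured genes outside the cluster, 5 on each side, only Fam162a passed in any comparison, with 1.54 ± 0.31 in IL-17C+ involved against WT skin (adjusted p = 0.0269), and that call ended without any 1 of the 4 arrays (0.0847 to 0.337). Casr and Cd86, which follow the Stfa3 end, did not pass in any.

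**Figure D4:**
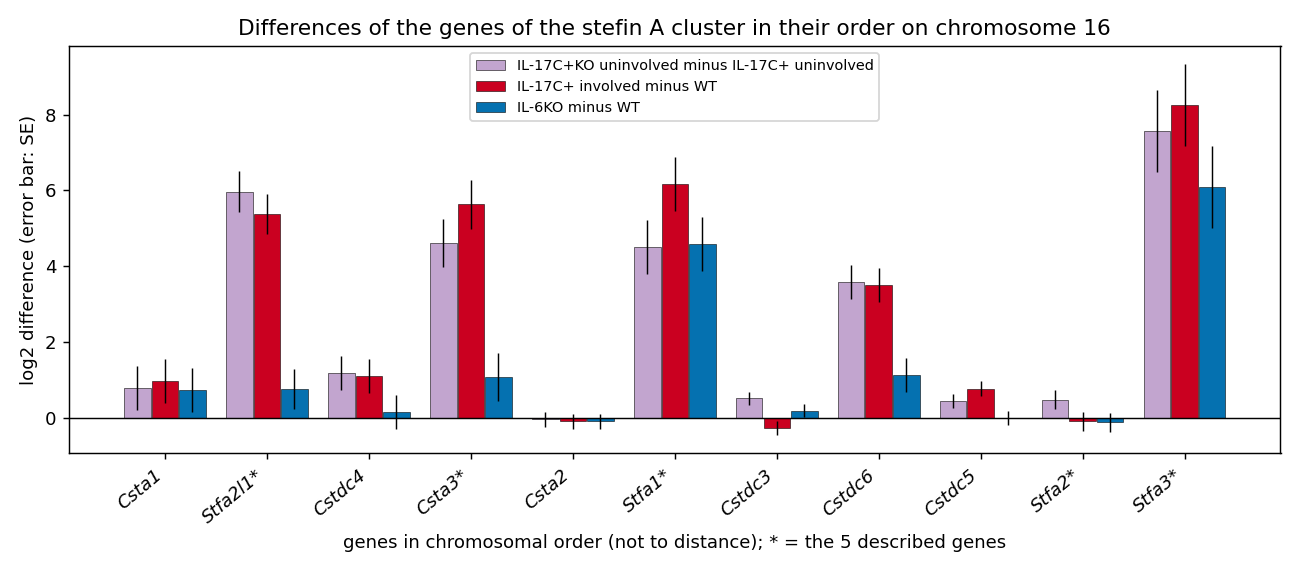
Log2 differences with SE of the 11 measured protein-coding genes of the cluster, in their order on chromosome 16 and not to distance, in IL-17C+KO uninvolved minus IL-17C+ uninvolved, IL-17C+ involved minus WT and IL-6KO minus WT skin; asterisks mark the 5 described genes, whose bars for involved skin carry no test. Bars above 3 in the first comparison belong to Stfa2l1, Csta3, Stfa1, Cstdc6 and Stfa3, the other 6 lie between -0.03 and 1.20, and in the third only Stfa1 and Stfa3 are above 3.

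The genes most like the mean of the 5 over the 12 arrays, by Pearson's r and without other type 1 cystatins or predicted loci, were S100a8 (r = 0.997) and S100a9 (0.994). Both encode the subunits of calprotectin, made by neutrophils and by stressed keratinocytes. Sprr1b, Sprr2d, Sprr2e and Lce3d, proteins of the cornified envelope, had r = 0.989, 0.98, 0.98 and 0.975, and the stress keratin Krt16 had 0.983. Cxcr2, a chemokine receptor of neutrophils, was at 0.98, the beta-defensin Defb3 at 0.975 and the kallikrein Klk13 at 0.973. Without the 2 arrays farthest from the median, r stayed between 0.967 and 0.995 for these 10 genes. The arrays share their groups, and the genes were ranked among 22180, so r is a description.

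The closest genes differed between the pairs. For Stfa1 and Stfa3 they included each other and Fabp5, a fatty acid binding protein of keratinocytes (r = 0.979 and 0.986), with Aox4 (0.982) for Stfa1 and Il1f9, which encodes IL-36 gamma (0.979), for Stfa3. Those of Stfa2l1 were Retnlg (0.989), the acute phase gene Saa3 (0.985) and Cxcr2 (0.98), and those of Csta3 were Sprr2b (0.981), Il1b (0.975) and Cxcr2 (0.973). Fabp5 read 9.31 and 9.73 in IL-6KO skin and 7.83 and 8.02 in WT skin, and Aox4 rose there by 3.08 ± 0.51 (adjusted p = 0.0244, but 0.0522 to 0.312 without 1 of the 4 arrays). Saa3 read 4.25 and 4.68 in IL-6KO and 4.13 and 4.00 in WT skin, and Retnlg 2.90 and 3.71 in IL-6KO and 3.73 and 2.68 in WT skin. For Stfa2 the closest was Olfr355, an olfactory receptor gene, at r = 0.937, over levels of Stfa2 that never reached the array median.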

How the data were processed

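Per the submitters' processing notes, the authors used RMA in Affymetrix Expression Console, which corrects background, normalizes between arrays and summarises probes; neither version is given in the sources used here. The deposited values are linear intensities from 2.5 to 18385, and the array medians are 15.7 to 18.8. The plan assumed log2 values, so log2 was taken here first. Of 41345 rows, 23521 name 1 gene, 1814 several and 16010 none; only the first kind was used. Where a gene had several rows (1082 genes), its highest-mean row was taken. Each of the 5 stefin A genes has 1 row.

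Groups follow the sample titles. The replicate number is the age (10 or 14 weeks) per the labels, so age entered the model as a block. The 22180 genes were fitted in R 4.3.3 with limma 3.58.1 (group plus age, all 12 arrays, eBayes with an intensity trend, 5 residual and 7.65 prior degrees of freedom). Genes passed at a Benjamini-Hochberg adjusted p under 0.05. The number of arrays limits the precision. The procedure was tested on simulated data.

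The 5 genes and all gene lists were chosen with earlier results of these data known. All 5 are named in every group. Eligible from a list were, in each comparison, up to 3 genes that passed with the largest differences and the largest that did not, plus its highest and lowest gene. Also named were the 10 genes most like the mean of the 5, the 3 most like each gene, and genes next to the cluster. Genes without a row of their own (among them Krt5, Fpr1, Lck and Gm7260) were not analysed here. Promoter sequences are from RefSeq (GRCm38.p6), read with Python 3.11.15 and aligned with Biopython 1.88; pairs with under 100 aligned bases were not compared. Alternatives were no replicate block, no trend, a filter on low values, another quantile normalization, the mean of all rows, a floor at the array median, only the arrays compared, and leaving out each array of the groups compared.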

Additional observations from a re-analysis of the deposited data

Results flagged for a closer look

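The difference between skin labelled involved and uninvolved ran in opposite directions in the IL-17C+KO and the IL-17C+ groups, at both ages. IL-17C+KO involved minus IL-17C+KO uninvolved skin was -4.75 for Stfa2l1, -3.66 for Csta3, -3.41 for Stfa3, -1.85 for Stfa1 and -0.3 for Stfa2, below 0 at both ages. IL-17C+ involved minus IL-17C+ uninvolved skin was 5.49, 5.23, 7.84, 4.85 and 0.54 for the same genes, above 0 at both ages. These 5 differences between the 2 contrasts were not tested. The genes were listed for their rise in involved skin, so the values above 0 are not independent of that choice. The share of all genes with such opposite directions was not counted. Stfa2 stayed below the array median on all 12 arrays, and its -0.3 changed sign when values below the array median were set to it.

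Seen the other way, IL-17C+KO involved minus IL-17C+ involved skin was -4.27 for Stfa2l1, -4.27 for Csta3, -3.68 for Stfa3, -2.19 for Stfa1 and -0.35 for Stfa2, whereas IL-17C+KO uninvolved minus IL-17C+ uninvolved skin was 5.97, 4.62, 7.57, 4.51 and 0.48. Each gene kept its direction at both ages within a contrast, and these 5 differences were not tested either. Both ways use the same 8 arrays, so the choice of the genes bears on both. Stfa2 lay below the array median on all 8. The 10-week and 14-week IL-17C+KO involved arrays differed by 5.21 for Stfa3 and by 3.03 for Stfa1.

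For Stfa2l1 the difference of IL-17C+KO uninvolved from IL-17C+ uninvolved skin exceeded that of IL-6KO from WT skin by 5.21 ± 0.75 in the interaction test of limma (adjusted p = 0.0136), with 5.16 at 10 weeks and 5.26 at 14 weeks. The other 4 genes did not pass it. Its WT or IL-17C+ uninvolved arrays may have been the baseline by which the genes were listed, so it is not independent of that choice. The groups are labels, which Il6 and Il17c did not follow.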

How the results depend on the processing

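Of 374 values of the 5 genes in the tested comparisons under an alternative, 325 kept direction and side of the threshold, 25 lost the call, 2 gained it and 22 changed sign. Stfa2l1 passed in both IL-17C+KO uninvolved comparisons under every alternative run, and calls lost elsewhere stand beside their results. The replicate block moved counts of all genes: with no replicate block 7 genes passed in IL-17C+ uninvolved against WT (12 with it), 26 in IL-6KO against WT (101) and 14 in IL-17C+KO involved against IL-6KO skin (38). It ended the calls of Stfa3 in IL-6KO against WT (adjusted p = 0.0786) and of Stfa2l1 in the interaction (0.063), and no other call of the 5 genes. Signal over background limits Stfa2 throughout and the low groups of the other genes. Median differences of the lists moved by more than the spread in 103 of 1834 cases. The cause of the changes below was not tested.

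Leaving out 1 array of the groups compared gave 0 to 87 genes past the threshold in IL-17C+ uninvolved against WT, 7 to 37 in IL-6KO against WT, 15 to 55 in IL-17C+KO uninvolved against IL-6KO, 59 to 200 in IL-17C+KO uninvolved against IL-17C+ uninvolved, 5 to 98 in the interaction and 0 to 0 for age. In involved skin it gave 65 to 469 (IL-17C+ against WT), 63 to 224 (IL-17C+ against IL-17C+ uninvolved), 0 to 52 (IL-17C+KO against IL-6KO), 16 to 130 (IL-17C+KO against IL-17C+KO uninvolved) and 23 to 244 (IL-17C+KO against IL-17C+). In the order of these 11 comparisons, setting values below the array median to it gave 86, 410, 260, 423, 156, 25, 847, 786, 98, 316 and 529 genes. Only the arrays compared gave 127, 266, 563, 354 and 72 in the first 5 comparisons, and 883, 770, 130 and 436 in IL-17C+ involved skin (against WT, then IL-17C+ uninvolved) and IL-17C+KO involved skin (against IL-6KO, then IL-17C+ involved). Another quantile normalization gave 2 in IL-17C+ uninvolved against WT, 163 in IL-6KO against WT, 20 in the interaction, 678 in IL-17C+ involved against WT and 2 in IL-17C+KO involved against IL-6KO. Without the trend the counts were 3, 63 and 15 in IL-17C+ uninvolved against WT, IL-6KO against WT and IL-17C+KO involved against IL-6KO. A filter on low values gave 19 in the first of these.

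Changes of sign concerned values that had not passed. Under another quantile normalization Stfa2l1 was at 0.01 in IL-17C+ uninvolved against WT, Stfa2 at 0.06 in IL-17C+KO uninvolved against IL-6KO and Stfa1 at 0.12 in the interaction. With the floor at the array median Csta3 was at -0.09 in IL-17C+ uninvolved against WT, and Stfa2 at -0.0 in IL-17C+KO uninvolved against IL-17C+ uninvolved, at -0.07 for age and at 0.02 in IL-17C+KO involved against IL-17C+KO uninvolved skin. Csta3 passed the interaction with that floor (3.32, adjusted p = 9.34e-06). Leaving out 1 array gave ranges across 0 for Stfa2l1 (-0.90 to 0.68), Stfa3 (-1.06 to 1.86) and Csta3 (-0.49 to 1.29) in IL-17C+ uninvolved against WT, for Stfa2 in IL-6KO against WT (-0.57 to 0.34), for Stfa2 in IL-17C+KO uninvolved against IL-6KO (-0.14 to 0.11) and in IL-17C+ involved against WT (-0.53 to 0.38), for Stfa1 in the interaction (-1.05 to 0.86), and for Stfa1 (-0.34 to 0.54) and Stfa3 (-0.10 to 1.27) by age. In IL-17C+KO involved against IL-6KO skin these ranges were -2.31 to 1.06 for Stfa1, -0.59 to 1.29 for Stfa2l1, -4.19 to 1.13 for Stfa3 and -0.78 to 1.31 for Csta3.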
